A study of Homo sapiens with 12 samples.

Results

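The genes described here are 52 genes listed for the G2 phase of the cell cycle and for mitosis. They were measured by RNA-seq in breast cancer cells grown inside synthetic matrices. They were taken by symbol from the deposited gene table, which held all 52 of them among 23368 distinct symbols. The list was drawn up as G2/M phase and mitosis genes, with earlier results of these data known. How each gene came onto it, by function or by its expression over the cell cycle, is not stated in the sources used here. MDA-MB-231 cells are a basal, estrogen receptor-negative line and T47D cells a luminal, estrogen receptor-positive line, both derived from pleural effusions of breast adenocarcinomas. Single cells of either line were encapsulated in poly(ethylene glycol) hydrogels with a crosslink that cells can degrade, and the hydrogels carried either GFOGER, a collagen mimic, or IKVAV, a laminin mimic. RNA was collected after 3 days, and 3 hydrogels were pooled for each replicate. There were 3 libraries each of MDA-MB-231 cells with GFOGER, T47D cells with GFOGER and T47D cells with IKVAV, and 2 libraries of MDA-MB-231 cells with IKVAV. A further replicate of that last condition, which the submitters had set aside for its quality, was not analysed here. The labels do not say whether replicates came from separate cultures, so the p-values measure the spread between these libraries, which may be technical.

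A cell that has copied its DNA enters mitosis when CDK1, bound to a B-type cyclin, becomes active. The chromosomes are then condensed, the nuclear envelope is taken apart, kinetochores attach to the spindle, and the anaphase-promoting complex marks cyclin B and securin for degradation before the cell divides by cytokinesis. Transcripts of many genes of this kind, though not of all, are low in resting and G1 cells and peak in G2 and mitosis. Their promoters often hold a short element called the cell cycle genes homology region (CHR), through which the DREAM complex holds the genes down in resting cells and the MYBL2-MuvB complex with FOXM1 turns them on, together with CCAAT boxes, which bind the factor NF-Y.

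RefSeq promoter sequences of build GRCh38.p14, which run from 250 bases before to 50 bases after the annotated start, were matched to 43 of the 52 genes. The 9 genes with no match were AURKA, BIRC5, TTK, UBE2C, TPX2, HMGB2, ANP32E, CDCA2 and FAM64A. The 5 promoters printed here are those of the CDK1 kinase and its partner CCNB2, and of CDC20, NDC80 and CBX5. CDC20 and NDC80 were among the genes that rose most with GFOGER in MDA-MB-231 cells. CBX5 was the only gene of the 52 called lower there (adjusted p below 0.05). They lie at chr10:60778081-60778380 (plus strand) for CDK1, chr15:59104896-59105195 (plus strand) for CCNB2, chr1:43358731-43359030 (plus strand) for CDC20, chr18:2571307-2571606 (plus strand) for NDC80 and chr12:54280073-54280372 (minus strand) for CBX5. Each is written 5′ to 3′ along the strand of the gene, and capitals mark the CHR letters TTTGAA or TTTAAA and the CCAAT letters, on either strand (read as TTCAAA and ATTGG where they lie on the opposite strand; TTTAAA is its own reverse complement).
CDK1: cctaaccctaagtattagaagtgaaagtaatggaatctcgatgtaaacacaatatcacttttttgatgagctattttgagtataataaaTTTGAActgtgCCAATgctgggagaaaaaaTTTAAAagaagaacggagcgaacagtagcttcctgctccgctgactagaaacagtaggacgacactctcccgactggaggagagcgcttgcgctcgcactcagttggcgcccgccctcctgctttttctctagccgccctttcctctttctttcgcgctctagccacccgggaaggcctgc
CCNB2: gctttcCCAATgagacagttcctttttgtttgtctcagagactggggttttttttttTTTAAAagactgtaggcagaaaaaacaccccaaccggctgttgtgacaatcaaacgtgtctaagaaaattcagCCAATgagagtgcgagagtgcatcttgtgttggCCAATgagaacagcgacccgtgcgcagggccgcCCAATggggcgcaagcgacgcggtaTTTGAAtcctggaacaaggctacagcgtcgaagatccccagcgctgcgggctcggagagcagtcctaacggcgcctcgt
CDC20: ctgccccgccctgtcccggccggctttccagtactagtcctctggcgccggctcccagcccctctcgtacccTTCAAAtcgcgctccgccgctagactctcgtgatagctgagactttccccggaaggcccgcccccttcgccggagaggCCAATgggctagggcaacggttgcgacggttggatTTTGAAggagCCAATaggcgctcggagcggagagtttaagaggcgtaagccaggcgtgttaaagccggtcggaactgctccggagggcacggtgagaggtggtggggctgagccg
NDC80: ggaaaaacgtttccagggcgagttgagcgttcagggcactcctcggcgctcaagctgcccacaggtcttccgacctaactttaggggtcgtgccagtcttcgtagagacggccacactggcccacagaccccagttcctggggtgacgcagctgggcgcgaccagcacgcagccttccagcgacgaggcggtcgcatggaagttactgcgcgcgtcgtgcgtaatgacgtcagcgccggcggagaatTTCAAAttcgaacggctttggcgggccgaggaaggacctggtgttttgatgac
CBX5: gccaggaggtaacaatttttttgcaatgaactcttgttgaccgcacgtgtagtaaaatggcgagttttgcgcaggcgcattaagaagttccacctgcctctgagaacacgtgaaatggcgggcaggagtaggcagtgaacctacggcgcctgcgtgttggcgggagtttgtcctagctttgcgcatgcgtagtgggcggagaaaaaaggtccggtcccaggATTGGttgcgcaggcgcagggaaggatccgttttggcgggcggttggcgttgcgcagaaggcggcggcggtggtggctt
The promoter of CCNB2 held 4 CCAAT boxes, at 244, 120, 87 and 54 bases before the start, and a TTTGAA that began 29 bases before it. In CDC20 a TTTGAA at 65 bases before the start lay between CCAAT boxes at 100 and 55 bases before it. NDC80 held TTTGAA on the opposite strand, 3 bases before the start, and no CCAAT in this window. CBX5 held a CCAAT on the opposite strand, 29 bases before the start, and neither of the CHR forms.

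Over the matched genes, TTTGAA was present in 29 of 43 promoters (67.4%), against 15.4% of 27305 promoters of the same length in the RefSeq table. TTTAAA was present in 12 of 43 (27.9%), against 12.3% of all promoters, and either form was present in 34 of 43 (79.1%), against 24.3%. CCAAT was found in 29 of 43 promoters (67.4%), against 35.7%, and 24 of 43 (55.8%) held both a CCAAT and a CHR form, against 9.49%. Within the 100 bases before the start, a CHR form began in 20 of 43 promoters (46.5%), against 8.69% of all. A motif of E2F factors, TTCCCGC, stood in 4 of 43 promoters (9.30%, against 6.56%), and the E box CACGTG stood in 4 of 43 (9.30%, against 7.43%). All of these letters were searched on both strands, and matches of different motifs may share letters at their ends. The median GC content was 62.3% in the 43 promoters and 58.3% in all. A match describes the letters and is not a measured binding site.

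**Figure D1:**
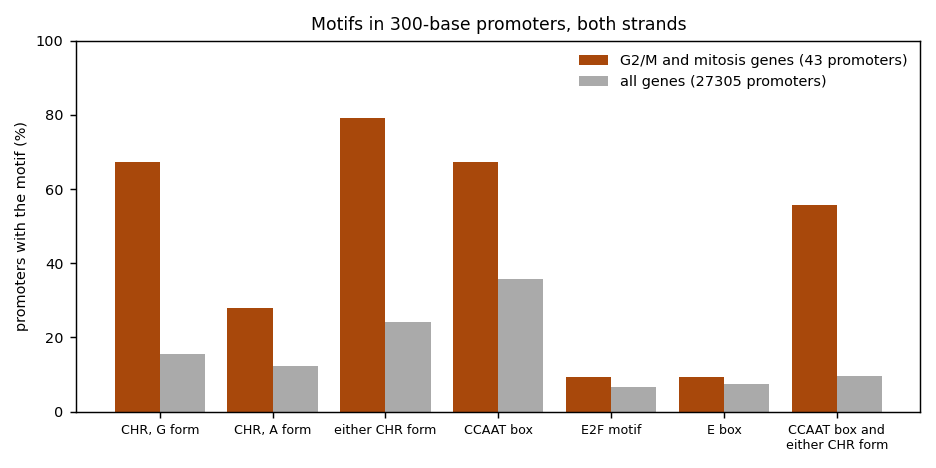
Percentage of 300-base RefSeq promoters that hold each motif on either strand, for the 43 matched G2/M and mitosis genes (brown) and all 27305 promoters (grey). The G and A forms of the CHR are TTTGAA and TTTAAA. Either CHR form was found in 79.1% of the promoters of the 43 genes and in 24.3% of all, while the E2F motif and the E box stood at 9.30% in the 43 promoters.

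All 52 genes had a count in every library, and all were tested in each comparison. Libraries held between 14338238 and 18452145 reads on genes, so that 3 counts corresponded to at most 0.209 cpm (counts scaled to the TMM library size). The 52 genes took 0.811% ± 0.00355 of the gene counts (SD, n = 2) in the MDA-MB-231 libraries with IKVAV and 1.06% ± 0.0738 (SD, n = 3) in those with GFOGER. In T47D cells they took 1.29% ± 0.0697 with IKVAV and 1.31% ± 0.0590 with GFOGER (SD, n = 3 each). Libraries of a condition stood apart from each other at these genes more than read sampling gives: the mean squared difference in counts over the 52 genes was 2.19 to 54.2 times that of sampling noise between pairs of replicates. Replicate 3 of MDA-MB-231 cells with GFOGER was the lowest of its 3 libraries at 39 of the 52 genes, and replicate 3 of T47D cells with IKVAV was the highest of its 3 at 41. The library totals that the deposited RPKM values imply were below the counted reads in 5 libraries (MDA-MB-231 cells with IKVAV, replicate 1, all 3 of T47D cells with GFOGER and replicate 3 of T47D cells with IKVAV) and above them in the other 6. No label names these sets. The results below are given with and without the libraries that moved them.

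**Figure D2:**
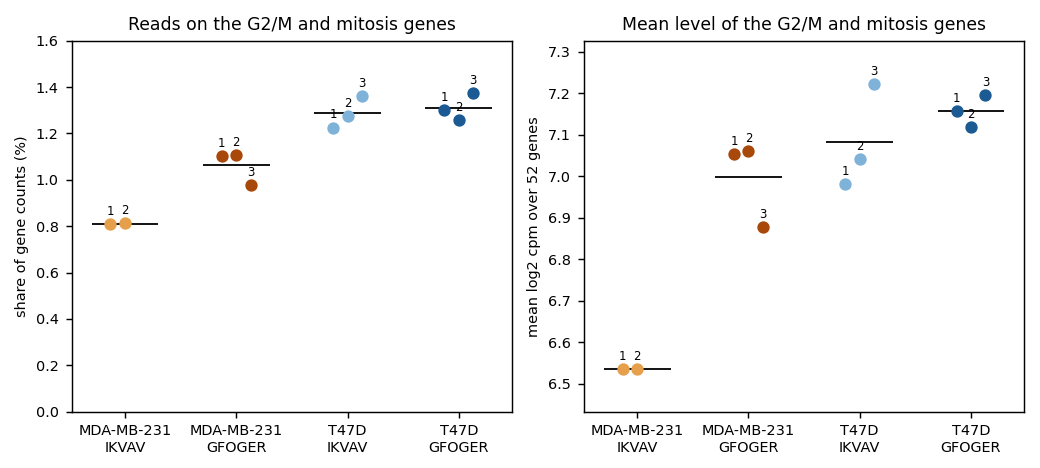
Left, the share of gene counts (%) that fell on the 52 G2/M and mitosis genes in each library; right, their mean log2 cpm on an axis that does not start at 0. Points are libraries, numbered by replicate, and lines are condition means; the 2 libraries of MDA-MB-231 cells with IKVAV lie lowest in both panels, and the T47D conditions overlap.

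The first comparison asked how MDA-MB-231 cells responded to the collagen mimic relative to the laminin mimic. With GFOGER, 42 of the 52 genes were higher (adjusted p below 0.05, quasi-likelihood test of edgeR, Benjamini-Hochberg adjusted), where 21.4% of 14092 genes tested were higher, and 1 gene was lower, where 21.4% of all genes were lower. The median log2 difference over the 52 genes was 0.50, or 1.41-fold, against 0.00 over all genes tested, and it was above 0 at 49 of 52. The changes were small in size: 0 of 52 passed the study's threshold of over 2-fold, which 9.57% of all genes passed in either direction. All GFOGER libraries lay above all IKVAV libraries at 43 of the 52 genes, where 32.2% of all genes did so, and below them at 3 (CBX5, G2E3 and CTCF), where 30.8% did. In bulk RNA, more cells in G2 and mitosis and more transcript per cell cannot be told apart. When either IKVAV library was left out, so that the other was assumed to vary like the GFOGER libraries, 28 genes were higher and 0 lower, where 13.1% of all genes were higher without replicate 1 and 11.2% without replicate 2. Across 16 alternative settings the median stayed between 0.43 and 0.55, and 26 of the 43 called genes were called in every one.

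**Figure D3:**
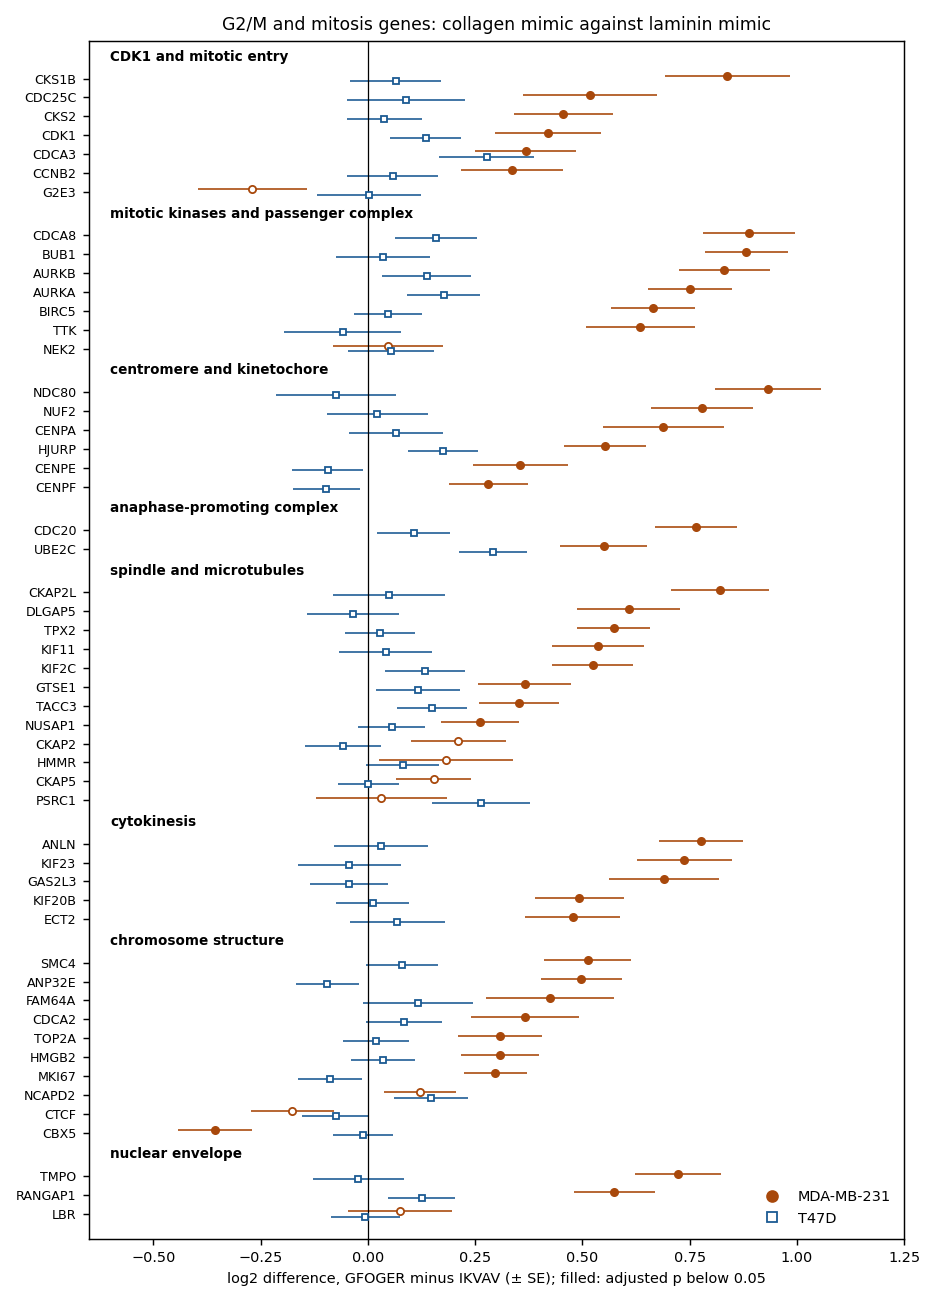
Log2 difference of each of the 52 genes, GFOGER minus IKVAV, with its standard error, in MDA-MB-231 cells (brown circles) and T47D cells (blue squares), grouped by role. Filled symbols have an adjusted p below 0.05: 43 of the 52 genes in MDA-MB-231 cells, of which only CBX5 lies below 0, and 0 in T47D cells.

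Among the genes of CDK1 and mitotic entry, 6 of 7 rose in MDA-MB-231 cells with GFOGER, with a median log2 difference of 0.42 over the 7. CDK1, the kinase that starts mitosis (chr10:62538089-62554610 in hg19), was at 122 and 109 cpm with IKVAV and at 176, 165 and 125 cpm with GFOGER. Every GFOGER library was above both IKVAV libraries, though replicate 3 by little. The log2 difference was 0.42 ± 0.12 (SE, adjusted p = 0.0117), and without IKVAV replicate 2 it was 0.34 with an adjusted p of 0.170. CKS1B, a small subunit that binds CDK1 and CDK2 (chr1:154947118-154951725), was at 21.6 and 26.9 cpm with IKVAV and at 50.0, 43.9 and 37.1 cpm with GFOGER, and the conditions did not overlap. It rose 1.79-fold, the most in this group (log2 0.84 ± 0.15, adjusted p = 0.000239). CKS2, its paralog, rose by 0.46 on the log2 scale, CCNB2 by 0.34, CDC25C, the phosphatase that activates CDK1, by 0.52, and CDCA3, an adaptor for degradation of the CDK1 inhibitor WEE1, by 0.37. Of the 16 alternatives, the call was lost under 5 at CCNB2, 4 each at CDC25C and CDCA3 and 1 at CKS2. G2E3, a ubiquitin ligase named for its G2/M expression, was at 27.2 and 30.7 cpm with IKVAV and at 25.4, 24.6 and 22.6 cpm with GFOGER. Its GFOGER libraries were all lower, but the log2 difference of -0.27 ± 0.13 did not pass the test (adjusted p = 0.0980).

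The mitotic kinases and the chromosomal passenger complex moved further, with a median log2 difference of 0.75 and 6 of 7 genes higher. CDCA8, which encodes borealin of the passenger complex (chr1:38158159-38175391), was at 54.3 and 50.9 cpm with IKVAV and at 94.5, 94.9 and 104 cpm with GFOGER. The groups were far apart relative to their spread, at 52.6 ± 2.42 cpm (SD, n = 2) and 98.0 ± 5.62 cpm (SD, n = 3), and the log2 difference was 0.89 ± 0.11 (adjusted p = 6.39e-06). BUB1, a spindle checkpoint kinase (chr2:111395409-111435684), was at 127 cpm in both IKVAV libraries and at 253, 239 and 214 cpm with GFOGER. It rose 1.84-fold with no overlap (log2 0.88 ± 0.10, adjusted p = 2.21e-06). AURKB, the kinase of the passenger complex, rose by 0.83 on the log2 scale, AURKA, which acts at the spindle poles, by 0.75, BIRC5, the survivin subunit, by 0.66, and TTK, a checkpoint kinase, by 0.64. NEK2, a centrosomal kinase, stood apart with a log2 difference of 0.05 (adjusted p = 0.795).

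All 6 genes of the centromere and kinetochore rose, with a median log2 difference of 0.62. NDC80, a subunit of the complex that joins kinetochores to microtubules (chr18:2571510-2616634), had the largest difference of the 52 genes. It was at 45.4 and 43.6 cpm with IKVAV and at 91.8, 92.9 and 71.9 cpm with GFOGER. Replicate 3 was the lowest GFOGER library and still lay above both IKVAV libraries, and the log2 difference was 0.93 ± 0.12, or 1.91-fold (adjusted p = 1.80e-05). Its partner NUF2 rose by 0.78, CENPA, the histone variant of centromeres, by 0.69, and HJURP, the chaperone that deposits CENPA, by 0.55. The kinesin CENPE and the large kinetochore protein CENPF rose less, by 0.35 and 0.28, and lost their calls under 4 and 5 of the 16 alternatives.

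Both genes of the anaphase-promoting complex rose. CDC20, its activator (chr1:43824626-43828873), was at 76.4 cpm in both IKVAV libraries and at 131, 129 and 133 cpm with GFOGER, far apart relative to the spread in either group. The log2 difference was 0.77 ± 0.10 (adjusted p = 9.91e-06). UBE2C, the conjugating enzyme of the complex, was at 115 and 111 cpm with IKVAV and at 173, 178 and 148 cpm with GFOGER. It rose 1.46-fold, again with no overlap (log2 0.55 ± 0.10, adjusted p = 0.000383).

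Of the 12 genes of the spindle and microtubules, 8 rose and the median log2 difference was 0.36. CKAP2L, a spindle protein (chr2:113495444-113522254), was at 93.9 and 90.2 cpm with IKVAV and at 176, 178 and 138 cpm with GFOGER. The conditions did not overlap, and it led this group with a log2 difference of 0.82 ± 0.11 (adjusted p = 2.66e-05). DLGAP5, which stabilizes kinetochore fibres, rose by 0.61, TPX2, the spindle assembly factor that activates AURKA, by 0.57, the motor KIF11 by 0.54 and the microtubule depolymerase KIF2C by 0.52. GTSE1, TACC3 and NUSAP1 rose by 0.37, 0.35 and 0.26, and lost their calls under 3, 3 and 6 of the 16 alternatives. The 4 genes that did not pass the test were CKAP2 at 0.21, HMMR at 0.18, CKAP5 at 0.15 and PSRC1 at 0.03, and the sign of PSRC1 turned under 5 of the alternatives.

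All 5 genes of cytokinesis rose, with a median log2 difference of 0.69. ANLN, which encodes the contractile ring scaffold anillin (chr7:36429432-36493400), was at 421 and 425 cpm with IKVAV and at 780, 782 and 627 cpm with GFOGER. All GFOGER libraries were above the IKVAV libraries and the log2 difference was 0.78 ± 0.10 (adjusted p = 1.02e-05). The table also lists KIAA0895 at overlapping positions, with at most 381 counts where ANLN had at least 6540. KIF23, the motor subunit of centralspindlin, was at 106 cpm in both IKVAV libraries and at 196, 188 and 151 cpm with GFOGER, and rose 1.67-fold with no overlap (log2 0.74 ± 0.11, adjusted p = 5.85e-05). GAS2L3, a cytoskeletal linker, rose by 0.69, the kinesin KIF20B by 0.49 and ECT2, the activator of RhoA at the division plane, by 0.48. ECT2 lost its call under 2 of the 16 alternatives.

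The genes of chromosome structure were the most mixed, with 7 of 10 higher, 1 lower and a median log2 difference of 0.31. SMC4, a condensin subunit (chr3:160117430-160152741), was at 218 and 206 cpm with IKVAV and at 313, 336 and 264 cpm with GFOGER, with no overlap. It had the largest difference of this group (log2 0.51 ± 0.10, adjusted p = 0.000730). MKI67, which encodes the proliferation marker Ki-67 (chr10:129894925-129924468), was at 1185 and 1239 cpm with IKVAV and at 1505, 1501 and 1489 cpm with GFOGER. The GFOGER libraries were all higher, but only by 1.23-fold (log2 0.30 ± 0.07, adjusted p = 0.00387). MKI67 lost its call under 2 of the 16 alternatives. TOP2A, the topoisomerase that untangles sister chromosomes (chr17:38544773-38574202), was at 577 and 570 cpm with IKVAV and at 766, 769 and 609 cpm with GFOGER. Its GFOGER replicate 3 lay nearer to the IKVAV libraries than to its own replicates, and the log2 difference of 0.31 ± 0.10 (adjusted p = 0.0172) lost its call when any MDA-MB-231 library but that one was left out. CBX5, which encodes the heterochromatin protein HP1 alpha (chr12:54624731-54673915), was at 294 and 288 cpm with IKVAV and at 231, 241 and 214 cpm with GFOGER. It was lower in every GFOGER library (log2 -0.36 ± 0.09, adjusted p = 0.00350), with an adjusted p of 0.070 without IKVAV replicate 1 and 0.052 without IKVAV replicate 2. CTCF, the insulator protein, was at 102 and 104 cpm with IKVAV and at 93.7, 87.2 and 95.1 cpm with GFOGER, all lower, with a log2 difference of -0.18 ± 0.10 that did not pass (adjusted p = 0.156). The condensin subunit NCAPD2 was at 0.12 and did not pass either.

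In the nuclear envelope group, TMPO, which encodes lamina-associated polypeptide 2 (chr12:98909351-98944157), was at 209 and 189 cpm with IKVAV and at 349, 354 and 289 cpm with GFOGER. The conditions did not overlap, and TMPO rose 1.65-fold (log2 0.72 ± 0.10, adjusted p = 2.97e-05). A non-coding entry, LOC100128191, overlaps it with at most 644 counts where TMPO had at least 3152. RANGAP1, the activator of the Ran GTPase, rose by 0.57, and LBR, the lamin B receptor, had a log2 difference of 0.07 (adjusted p = 0.656).

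**Figure D4:**
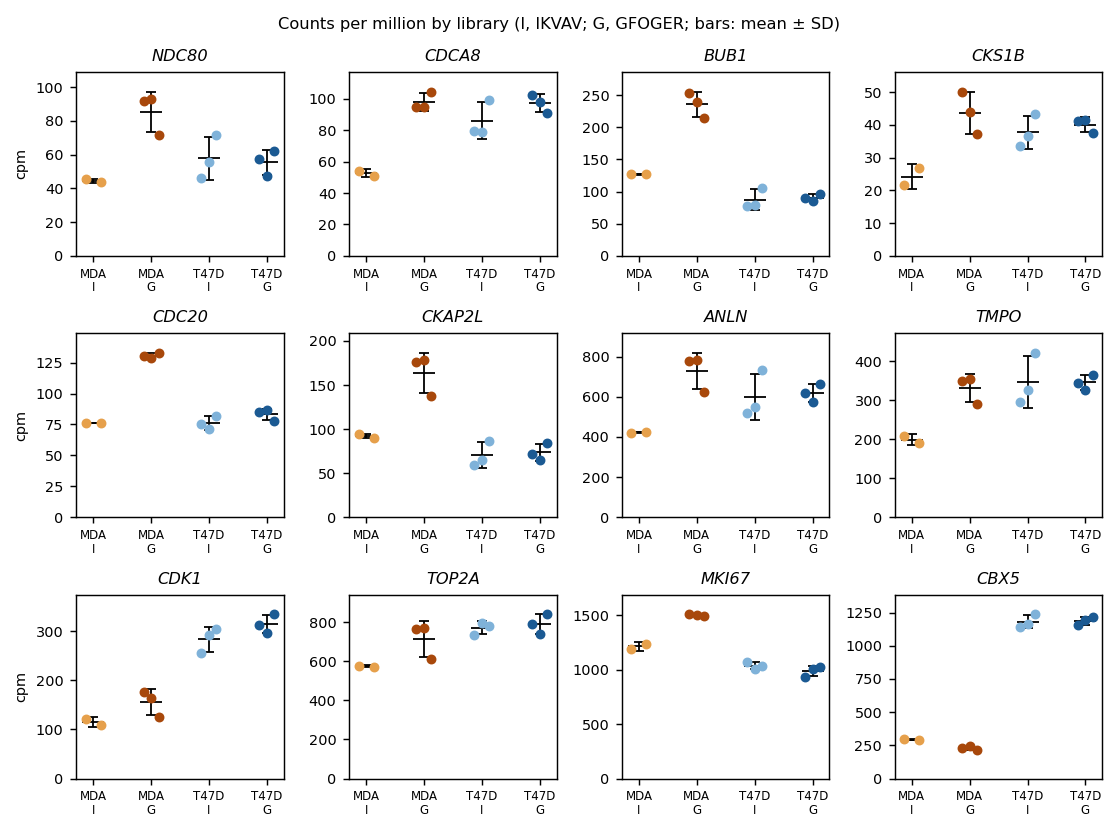
Level (cpm) in each library for 12 of the genes, on axes that start at 0. I stands for IKVAV and G for GFOGER, points are libraries and bars are the mean ± SD (n = 2 for MDA-MB-231 cells with IKVAV, n = 3 elsewhere). In MDA-MB-231 cells the GFOGER points of NDC80, from 71.9 to 92.9 cpm, lie above both IKVAV points, those of CBX5 lie below them, and in T47D cells the conditions overlap in all 12 panels.

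The same question in T47D cells gave no call. With the same test of edgeR, 0 of the 52 genes passed, where 0.0440% of 13642 genes did, and 4 had an unadjusted p below 0.05, where 11.2% of all genes had. DESeq2 called 0 and voom with quality weights called 3, all higher, where it called 11.1% of all genes. The log2 differences lay between -0.10 and 0.29 with a median of 0.05, against 0.00 over all genes, and the median absolute difference was 0.07 over the 52 genes and 0.11 over all genes. CDK1 was at 255, 292 and 304 cpm with IKVAV and at 314, 297 and 335 cpm with GFOGER, so that the conditions overlapped (log2 0.13 ± 0.08, adjusted p = 0.578). MKI67 was at 1069, 1004 and 1037 cpm with IKVAV and at 934, 1001 and 1026 cpm with GFOGER, also overlapping, and its difference was below 0 (log2 -0.09 ± 0.07, adjusted p = 0.700). NDC80, the gene that rose most in MDA-MB-231 cells, was at 46.2, 55.4 and 71.7 cpm with IKVAV and at 57.3, 47.3 and 62.0 cpm with GFOGER, with the highest and the lowest value both in the IKVAV libraries.

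At 5 genes, all GFOGER libraries of T47D cells lay above all IKVAV libraries, where 9.31% of all genes did so, and at 0 genes they lay below, where 6.64% did. The 5, named here after their values were seen, were UBE2C, CDCA3, HJURP, PSRC1 and NCAPD2. UBE2C was at 149, 156 and 173 cpm with IKVAV and at 198, 207 and 186 cpm with GFOGER, and had the largest difference of the 52 genes in T47D cells (log2 0.29 ± 0.08, adjusted p = 0.205). Without replicate 3 of T47D cells with IKVAV, the library that was highest at most of the genes, UBE2C was the 1 gene called, where 7.62% of all genes were called, and the median was 0.14. Without replicate 1 of that condition the median was -0.0039, and with the set of implied library totals as a term, which in T47D cells separates all GFOGER libraries from 2 of the IKVAV libraries, it was -0.061.

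Whether the cell lines responded differently was tested with the interaction of cell line and peptide, taken as the log2 difference in MDA-MB-231 cells minus that in T47D cells. It was above 0 with an adjusted p below 0.05 at 29 of the 52 genes, where 10.9% of 15320 genes were, and below 0 at 1, CBX5, where 10.2% were. The median over the 52 genes was 0.42, against 0.03 over all genes. NDC80 had the largest interaction, at 1.01 ± 0.20 (SE, adjusted p = 0.00171), and was the only one over 2-fold, where 6.42% of all genes were. However, 0 of the 52 genes were over 2-fold under 13 of the 22 alternatives. BUB1 followed at 0.86 ± 0.15 (adjusted p = 0.000590) and KIF23 at 0.79 ± 0.18 (adjusted p = 0.00398). By role, the interaction was called at 6 of 6 genes of the centromere and kinetochore, 6 of 7 mitotic kinases and passenger genes, 4 of 5 cytokinesis genes and 2 of 7 mitotic entry genes. It was called above 0 at 5 of 12 spindle genes, 3 of 10 chromosome structure genes, 2 of 3 nuclear envelope genes and 1 of 2 anaphase-promoting complex genes. In simulated counts this test recovered 20 of 100 genes given a log2 difference of 0.5, so a missing call does not show an equal response. CDK1 and TOP2A, at 0.29 and 0.30, were not called (adjusted p = 0.194 and 0.101). Without IKVAV replicate 1 of MDA-MB-231 cells 17 genes were called and without IKVAV replicate 2 16, all above 0, where 14.3% and 11.7% of all genes were called.

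The cell lines themselves were compared within each matrix, on the same libraries as above. In GFOGER, 15 of the 52 genes were higher in MDA-MB-231 cells, where 40.1% of 15320 genes were, and 20 were lower, where 39.5% were, with a median log2 difference of -0.08 against 0.01 over all genes. In IKVAV, 7 were higher, where 38.3% of all genes were, and 37 were lower, where 39.0% were, with a median of -0.58 against -0.02 over all genes. Differences over 2-fold were found at 3 higher and 6 lower genes in GFOGER and at 1 higher and 8 lower genes in IKVAV, where 23.7%, 23.2%, 23.6% and 22.3% of all genes had them. Of the 52 genes, 20 were lower in MDA-MB-231 cells in both matrices, where 33.4% of all genes were, and 7 higher in both, where 33.3% were. A further 14 had no call in GFOGER but were lower in IKVAV, where 4.90% of all genes were. NDC80, ANLN and ANP32E were higher in MDA-MB-231 cells in GFOGER and lower in IKVAV, where 0.705% of all genes were. However, ANLN lost its call in GFOGER, where the libraries of the lines overlapped, under 7 alternatives, and NDC80 its call in IKVAV under 6. The cell line calls of ANP32E were not followed under the alternatives. The median in GFOGER was 0.0043 without replicate 3 of MDA-MB-231 cells with GFOGER and -0.18 under upper-quartile normalization, so no direction for the whole set is stated there, whereas in IKVAV it stayed between -0.65 and -0.51.

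HMMR, which encodes a microtubule-binding receptor of hyaluronan (chr5:162887517-162918953), differed most between the lines. It was at 13.4 and 14.3 cpm (IKVAV) and 16.9, 17.2 and 13.4 cpm (GFOGER) in MDA-MB-231 cells, and at 157, 162 and 189 cpm (IKVAV) and 190, 168 and 185 cpm (GFOGER) in T47D cells. The ranges were an order of magnitude apart, and HMMR was 11.3-fold lower in MDA-MB-231 cells in GFOGER (log2 -3.50 ± 0.11, adjusted p = 8.09e-17) and 12.2-fold lower in IKVAV (log2 -3.60 ± 0.13, adjusted p = 1.35e-15). CBX5 was at 1143, 1165 and 1237 cpm with IKVAV and at 1153, 1191 and 1216 cpm with GFOGER in T47D cells, above every MDA-MB-231 library, and was 5.12-fold lower in MDA-MB-231 cells in GFOGER (adjusted p = 7.01e-17). ECT2 (chr3:172472298-172539263) was at 156 and 176 cpm with IKVAV and 241, 260 and 198 cpm with GFOGER in MDA-MB-231 cells, and at 511, 581 and 733 cpm and 667, 583 and 685 cpm in T47D cells. It was 2.73-fold lower in MDA-MB-231 cells in GFOGER with no overlap (adjusted p = 3.61e-10). CDK1 and SMC4 were also lower in MDA-MB-231 cells, by 1.00 and 1.09 on the log2 scale in GFOGER and by 1.30 and 1.53 in IKVAV.

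On the other side, NCAPD2, a subunit of condensin I (chr12:6603298-6641132), was at 230 and 232 cpm with IKVAV and 259, 249 and 252 cpm with GFOGER in MDA-MB-231 cells, and at 83.6, 81.6 and 83.1 cpm and 90.2, 103 and 85.7 cpm in T47D cells. It was 2.77-fold higher in MDA-MB-231 cells in GFOGER (log2 1.47 ± 0.08, adjusted p = 8.42e-13) and 2.80-fold higher in IKVAV, so the difference between the lines was of similar size in both matrices. BUB1 was at 78.2, 78.7 and 106 cpm with IKVAV and at 89.7, 85.8 and 96.6 cpm with GFOGER in T47D cells, below every MDA-MB-231 library. It was 2.63-fold higher in MDA-MB-231 cells in GFOGER (adjusted p = 1.21e-10) but 1.45-fold higher in IKVAV. CKAP2L was 2.25-fold and 1.31-fold higher, and its T47D libraries, between 59.5 and 87.0 cpm, lay below every MDA-MB-231 library. MKI67 was 1.54-fold higher in MDA-MB-231 cells in GFOGER and 1.17-fold higher in IKVAV.

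**Figure D5:**
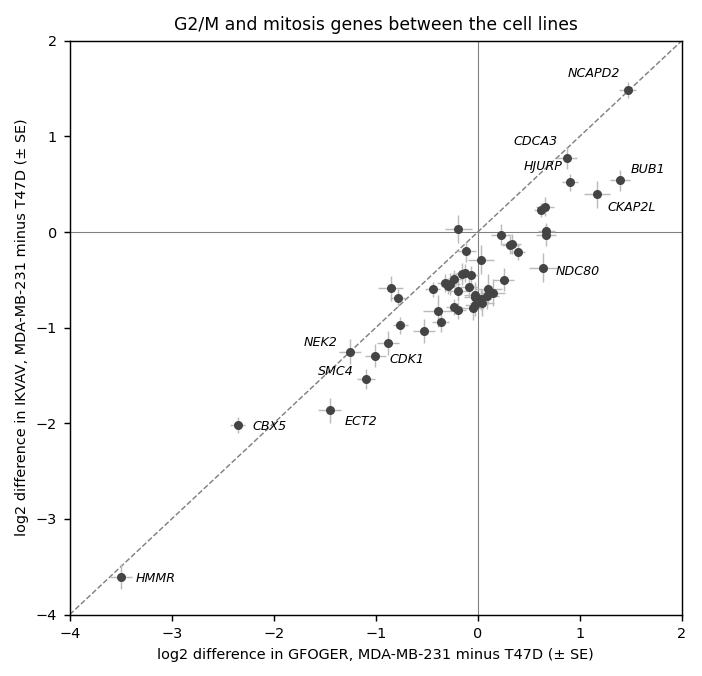
Log2 difference between the cell lines, MDA-MB-231 minus T47D, in GFOGER (x axis) and in IKVAV (y axis) for the 52 genes, with standard errors. Most points lie below the dashed line of equal differences. The MDA-MB-231 libraries differ between the axes and so do the T47D libraries; HMMR lies at -3.50 and -3.60, and NCAPD2 at 1.47 and 1.49.

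Compared per length of transcript, the level of the 52 genes ran in every condition from a few cpm per kilobase to above 100. CKS2 was the highest in all 4 conditions, at 180 and 130 cpm per kilobase in MDA-MB-231 cells with GFOGER and IKVAV and at 208 and 200 in T47D cells, and TPX2 was the next highest in all 4. The lowest was G2E3 at 4.34 cpm per kilobase in MDA-MB-231 cells with GFOGER and at 7.94 and 7.82 in T47D cells with GFOGER and IKVAV, and HMMR at 4.40 in MDA-MB-231 cells with IKVAV. The median level over the 52 genes was 47.9 and 28.8 cpm per kilobase in MDA-MB-231 cells with GFOGER and IKVAV, and 46.8 and 44.7 in T47D cells.

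Other genes of the cell cycle were counted in the same MDA-MB-231 comparison, where 21.4% of all genes tested were higher and 21.4% lower. Of 67 other mitosis genes, 47 were higher with GFOGER and 3 lower, with a median log2 difference of 0.40, and among them CCNB1, the main mitotic cyclin, rose by 0.70, CCNA2 by 0.56, the kinase PLK1 by 0.43, the securin gene PTTG1 by 0.63, the checkpoint genes MAD2L1 and BUB1B by 0.49 and 0.33, and CENPW by 1.16. Of 43 genes of S phase, in which DNA is copied, 31 were higher and 0 lower, with a median of 0.47. Among them RRM2, a subunit of ribonucleotide reductase, rose by 0.99. Of 9 G1 cyclins and kinases, 5 were higher and 1 lower, and CCND1, cyclin D1, rose by 0.77 while CCNE1 at 0.25 did not pass (adjusted p = 0.194). Of 21 transcription regulators of G2/M genes, 4 were higher and 4 lower, near the shares of all genes, with a median of 0.09. FOXM1 rose by 0.33 and E2F7, a repressor, by 0.84, RBL2, a pocket protein of the DREAM complex, fell by 0.33 and E2F2 fell by 0.84, while MYBL2 at 0.03 and E2F1 at 0.14 did not pass. Of 16 cyclin-dependent kinase inhibitors and arrest genes that could be tested, 6 were higher and 4 lower. CDKN1B, which encodes p27, fell by 0.69 and CCNG2 by 1.20, SFN and KLF4 rose by 1.23 and 0.89, and CDKN1A, which encodes p21, was at 0.24 with an adjusted p of 0.0674. In T47D cells 1 of the 67 other mitosis genes was called, higher, and 0 genes of the other 4 lists were, with edgeR's quasi-likelihood test, where 6, 7, 4, 5 and 3 of the mitosis, S phase, G1, regulator and arrest lists had an unadjusted p below 0.05 and 11.2% of all genes had one.

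The identity of the lines was checked at marker genes. All 9 luminal markers, among them ESR1, GATA3 and CDH1, were lower in MDA-MB-231 cells in both matrices, with median log2 differences of -5.96 in GFOGER and -5.67 in IKVAV, and CDH1, which encodes E-cadherin, was at a mean of 4.75 cpm with IKVAV and 2.43 cpm with GFOGER in MDA-MB-231 cells, labelled epithelial, and above 999 cpm in every T47D library. Within MDA-MB-231 cells CDH1 was the only luminal marker called between the peptides, and it fell with GFOGER (log2 -0.97 ± 0.26, adjusted p = 0.00594). Of 8 mesenchymal markers, 7 were higher in MDA-MB-231 cells in both matrices. The remaining marker was lower there by over 2-fold in IKVAV (log2 -2.39) and was not called in GFOGER (log2 -0.22). Within MDA-MB-231 cells this list moved along with the G2/M and mitosis genes: 7 of 8 rose with GFOGER and ZEB1 fell, and the summed level was between 3726 and 3768 cpm with IKVAV and between 6041 and 6462 cpm with GFOGER. Its part in the difference of the G2/M and mitosis genes was not tested. Of 10 markers of other cell types, DES and HBB were at 0 counts in every library, and the summed level was between 280 and 289 cpm with IKVAV and between 366 and 481 cpm with GFOGER in MDA-MB-231 cells, most of it CD68.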

How the data were processed

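The authors sequenced poly-A-selected RNA with a stranded kit. The submitters' processing notes name FastQC, Trim Galore 0.4.4, TopHat2 2.1.0, bedtools 2.17, SAMtools 1.4, HTSeq 0.6.1p1, edgeR 3.16.5 and the build hg19; the strand option of counting is not given in the sources used here. The deposited table holds raw counts of reads per gene and, per the file headers, RPKM values by the authors, which were used only for the library total each library's RPKM values imply. Of 24656 rows, 1288 that repeat a symbol were left out, keeping the row with most counts. Counts were present for 11 of 12 samples. Gene positions and lengths are those of the table.

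R 4.3.3 was used with edgeR 4.0.16 (TMM, filterByExpr, quasi-likelihood test, Benjamini-Hochberg adjustment over all genes tested), limma 3.58.1 and DESeq2 1.42.0. GFOGER minus IKVAV was fitted within each line, and the interaction and the cell line comparisons used a fit of all 4 conditions. Calls needed an adjusted p below 0.05, and standard errors are the log2 difference over the square root of F. Levels in cpm use TMM factors over the 11 libraries, and mean log2 cpm a prior count of 2. The test scripts were tested on simulated counts. Libraries held 14338238 to 18452145 counts; ranges and floors cover counting error only. Groups that share libraries, such as those of the interaction and the cell line comparisons, are not independent.

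The genes and all lists were chosen with earlier results of these data known. Every library is given for MKI67, TOP2A and CDK1, for the gene of each role with the largest difference in MDA-MB-231 cells, for the 3 lowest there, for the 3 largest interactions and for the 3 highest and 3 lowest differences between the lines in GFOGER; of related lists, 14 preset genes and up to 3 genes with the largest called difference in each could be named. UBE2C is shown besides these. Alternatives were other tests, normalizations and filters, the replicate number as a block, the set of implied RPKM totals as a term, a 2-fold threshold inside the test, and leaving out each library.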

Additional observations from a re-analysis of the deposited data

Results flagged for a closer look

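The response to the peptide differed between the cell lines at 30 of the 52 genes by the test of the difference itself, the interaction of cell line and peptide in edgeR's quasi-likelihood test (Benjamini-Hochberg adjustment over 15320 genes), 29 above 0 and 1 below, where 10.9% and 10.2% of all genes were. Values are log2 differences, MDA-MB-231 cells minus T47D cells, and a positive value is a larger rise with GFOGER in MDA-MB-231 cells. In the kinetochore and the centromere they were NDC80 1.01, NUF2 0.76, CENPA 0.63, CENPE 0.46, CENPF 0.38 and HJURP 0.38. Among the mitotic kinases and the passenger complex they were BUB1 0.86, CDCA8 0.74, AURKB 0.70, TTK 0.70, BIRC5 0.63 and AURKA 0.58. Cytokinesis genes stood at KIF23 0.79, ANLN 0.75, GAS2L3 0.74 and KIF20B 0.49, and spindle genes at CKAP2L 0.78, DLGAP5 0.65, TPX2 0.55, KIF11 0.50 and KIF2C 0.40. The remaining positive values were CKS1B 0.78 and CKS2 0.42 in mitotic entry, CDC20 0.67 in the anaphase-promoting complex, TMPO 0.75 and RANGAP1 0.46 in the nuclear envelope, and ANP32E 0.60, SMC4 0.44 and MKI67 0.39 in chromosome structure. CBX5 was the only gene with a negative value, at -0.34. Under 21 alternative settings, 14 of the 30 genes were called in every one, among them NDC80, BUB1, CDC20, ANLN and TMPO. The call was lost in 13 alternatives at CKS2, 11 at KIF2C, 10 each at HJURP and CENPF, 8 each at CENPE and KIF11, 7 at SMC4, 6 at CBX5, 5 at TTK and 1 to 3 at the other 7 genes, and the report gives the counts without each IKVAV library of MDA-MB-231 cells. Conditions held 2 or 3 libraries, too few for a test of single libraries that stand apart.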

How the results depend on the processing

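The rise of the genes with GFOGER in MDA-MB-231 cells kept its direction in all 16 alternatives, with 28 to 46 genes higher and 28 to 48 called when a library was left out, where 11.2% to 29.1% of all genes were higher. Leaving out either IKVAV library of MDA-MB-231 cells gave 28 and 0 lower, and so did the set of implied RPKM totals as a term, which there separates a single library; without replicate 3 of MDA-MB-231 cells with GFOGER 2 genes were lower, as with voom with quality weights. Over 2-fold, 1 gene stood with voom, and leaving out libraries gave 0 to 1. PSRC1 turned to -0.095 with voom, -0.061 with the set term and -0.11 to 0.13 when libraries were left out; NEK2 ran from -0.051 to 0.15 and LBR from -0.0055 to 0.20 there. In T47D cells voom called 3 genes, all higher, and leaving out libraries gave 0 to 1, with a median between -0.0039 and 0.14; the set term gave a median of -0.061. For the interaction, leaving out a library other than the 2 of MDA-MB-231 cells with IKVAV gave 22 to 37 calls, where 16.1% to 26.6% of all genes were called. Of these calls 21 to 36 were higher, 0 to 1 lower and 0 to 1 over 2-fold. Leaving out IKVAV replicate 1 or 2 of MDA-MB-231 cells left 1 library in that condition, and the median was 0.43 and 0.42. The count over 2-fold was 0 with DESeq2, voom, upper-quartile normalization, library size alone and DESeq2 size factors in edgeR. It was also 0 with at least 10 counts in every library and with the 2-fold threshold inside the test. The set term gave 7 over 2-fold and a median of 0.54. At any fold it called 27 genes higher and 0 lower, where 20.2% of all genes were called in either direction.

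Between the cell lines in GFOGER, the median was -0.18 with upper-quartile normalization, -0.17 with library size alone and -0.12 to 0.0043 when libraries were left out; both normalizations also shifted the median of all genes. The set term left 14 genes higher and 11 lower, where 71.0% of all genes were called in either direction. With the threshold inside the test, 6 were over 2-fold in GFOGER and 7 in IKVAV, where 38.9% and 37.5% of all genes were. Genes near 0 changed sign there: CDCA8 stood at -0.048 with voom, -0.067 with upper-quartile normalization, -0.0648 with library size alone and -0.017 to 0.070 without single libraries; KIF23 at -0.055 with upper-quartile normalization, -0.0527 with library size alone and -0.024 to 0.15 without single libraries; TMPO at 0.011 with voom, 0.25 with the set term and -0.095 to 0.043 without single libraries. In IKVAV, CDC20 stood at -0.0643, -0.0529 and -0.0052 with upper-quartile normalization, library size alone and the set term, and at -0.030 to 0.050 without single libraries. The cause of these changes was not tested, apart from the smaller number of libraries where 1 was left out.

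With the replicate number as a replicate block, MDA-MB-231 cells had 46 genes higher, where 29.3% of all genes were, and 2 lower. There 1 gene was over 2-fold, and PSRC1 stood at -0.11. No IKVAV library of MDA-MB-231 cells had the number 3, so in this fit the block took GFOGER replicate 3 out of the comparison. Leaving that library out also gave 46 higher and 2 lower, and the median log2 difference was 0.55 either way. For the interaction, the block gave 23 genes higher, where 7.97% of all genes were, 0 lower and 0 over 2-fold. The labels say only that libraries share a number: deviations of same-numbered libraries correlated across genes at 0.02 and 0.01 in MDA-MB-231 cells and at -0.06, -0.12 and 0.04 in T47D cells, so the block was not used as the main design. In T47D cells 0 genes were called with the block, by edgeR's quasi-likelihood test, as without it, where 4 had an unadjusted p below 0.05. Precision is limited by 2 or 3 libraries in a condition and, for the genes with few reads, by counts: FAM64A, with the lowest count of the 52 genes in any library at 183, had a standard error of 0.15 in MDA-MB-231 cells, and MKI67, with at least 15430, one of 0.07.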

Other observations

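Either form of the CHR stood in the promoters of 28 of the 33 matched genes that rose with GFOGER in MDA-MB-231 cells and of 6 of the 10 other matched genes. CCAAT stood in 23 of the 33 and in 6 of the 10, and both motifs in 21 of the 33 and in 3 of the 10. These counts are descriptions without a test.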
